A study of Mus musculus with 18 samples.

Results

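The miR-181 family was described as 6 of the 1966 mature mouse miRNAs in a small RNA sequencing series, taken by name: mmu-miR-181a-5p, mmu-miR-181b-5p, mmu-miR-181c-5p, mmu-miR-181d-5p, mmu-miR-181a-1-3p and mmu-miR-181a-2-3p. All 6 had reads in every one of the 18 libraries. The series compared adrenal glands with neuroblastoma tumors of transgenic mice. AG stands for 3 wildtype adrenal glands, labelled CRE -. TI stands for 7 tumors driven by an IGF2BP1 transgene. Of these, 6 were labelled IGF2BP1 +/+, CRE +, of which 1 came from an adrenal gland, and 1 was labelled IGF2BP1 +/-, CRE +. TIM stands for 8 tumors with both transgenes, labelled IMP1/MYCN, CRE +, where IMP1 is another name of IGF2BP1, an RNA-binding protein that stabilizes mRNAs. Of the TIM tumors, 5 were labelled only as tumor, 2 as adrenal gland tumor and 1 as spine tumor. The transgenes sit in the Rosa26 locus behind a stop cassette and are switched on by a Cre under the Dbh promoter, in adrenal glands and peripheral nerves, and the IGF2BP1 transgene lacks its own 3'UTR. A column of the table gives a library's group and not its mouse, so heterozygous, adrenal and spine tumors cannot be told from the others, and the library numbers used below follow column order and serve only as names.

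MicroRNAs are short RNAs cut from hairpin precursors. Each hairpin can give a mature miRNA from its 5' arm (5p) and from its 3' arm (3p), and bases 2 to 8 of the mature form, the seed, largely decide which mRNAs are repressed. The miR-181 family is known from lymphocyte development, where miR-181a tunes T cell receptor signalling, and from brain, where its members are abundant. Hairpins that lie close together on a strand are commonly transcribed as 1 precursor, while arms of a hairpin can accumulate to very different levels.

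The mature sequences are shown because they separate what the members share from what tells them apart. They were taken from RefSeq for GRCm38.p6, the build the authors used under the name mm10, and the seed is in capitals:
mmu-miR-181a-5p: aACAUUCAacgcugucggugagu
mmu-miR-181b-5p: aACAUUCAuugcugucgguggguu
mmu-miR-181c-5p: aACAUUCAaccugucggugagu
mmu-miR-181d-5p: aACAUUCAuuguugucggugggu
mmu-miR-181a-1-3p: aCCAUCGAccguugauuguacc
mmu-miR-181a-2-3p: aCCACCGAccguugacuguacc
mmu-miR-181c-3p: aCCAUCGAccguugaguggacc

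The 4 members from the 5' arm carried the seed ACAUUCA, and no other of the 1675 miRNAs of the table with a sequence had it. With positions counted from 1 at the 5' end and the first-named miRNA's base first, miR-181b-5p and miR-181d-5p differed by C12U and by the last U of miR-181b-5p. The difference from miR-181a-5p to miR-181b-5p was A9U, C10U and A21G, with 1 U added at the end, and from miR-181a-5p to miR-181c-5p only 1 G was missing. The 3p members differed by U5C, inside the seed, and U16C. The seed of miR-181a-1-3p was also that of miR-181c-3p, which is no member but was described with the other arms of the same hairpins. The mature miRNAs had between 21 and 24 bases, so their read counts need no correction for length, but the ligation of adapters depends on sequence and levels of different miRNAs are compared here as reads.

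The members came from 6 hairpins in 3 pairs. On chromosome 1, plus strand, Mir181a-1 (chr1:137966455-137966541) and Mir181b-1 (chr1:137966639-137966718) spanned 264 bp and overlapped an exon of the lncRNA gene Mir181a-1hg. On chromosome 2, plus strand, Mir181a-2 (chr2:38852735-38852810) and Mir181b-2 (chr2:38853830-38853918) spanned 1184 bp, in an intron of the lncRNA gene Nr6a1os and, on the opposite strand, of Nr6a1. On chromosome 8, minus strand, Mir181c (chr8:84178873-84178961) and Mir181d (chr8:84178716-84178787) spanned 246 bp in an intron of Nanos3. Coordinates are those of GRCm38.p6, and the overlapping genes are those of the GENCODE annotation of GRCm39. miR-181a-5p and miR-181b-5p are therefore each made at 2 loci and their reads do not show which, whereas miR-181c-5p, miR-181d-5p and the 3p arms each point to 1 hairpin.

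The libraries held between 11641696 and 23435621 reads on miRNAs. Values are CPM, in which a library's reads are scaled by its total times its TMM factor, and the members had at least 63 reads in every library. Low read counts are therefore not what limits them. The shallowest TI libraries were numbers 3 and 6 (14461360 and 11802837 reads). In TIM they were also numbers 3 and 6 (12133274 and 11641696 reads). These libraries hold several of the highest or lowest values below, and the part of depth in those values was not tested. miR-148a-3p alone took from 2.29% to 61.9% of the reads of a TI library, so CPM depends on the scaling. The library labelled TI that is number 5 stood apart from the other TI libraries, with the lowest share of miR-148a-3p (2.29%) and 213 CPM of miR-467a-5p against a TI median of 2.90 CPM. It was also the lowest TI library for miR-6540-5p (2.46 CPM against a median of 85.8), for miR-344f-3p (32.6 against 204) and for miR-196a-5p (17.7 against 341). The former 2 values lay between AG and the other TI libraries. Whether its label is right cannot be checked from the data, and neither can whether it is the heterozygous or the adrenal gland tumor of TI. Why this library stood apart was not tested. Calls that change without it, and the ranges it bounds most, are given without it below. In bulk tissue, fewer cells of a type and less RNA per cell cannot be told apart. Both neuronal markers (miR-124-3p and miR-9-5p) were higher in both tumor groups, with a summed 365 to 590 CPM in AG, 3782 to 13257 in TI and 5059 to 18879 in TIM. Both endothelial markers (miR-126a arms) were lower, with 38529 to 46092 CPM in AG, 1704 to 6736 in TI and 2428 to 8943 in TIM. Of the 5 leukocyte markers, 3 were lower in TI and 4 in TIM, with 427 to 620 CPM in AG, 53.5 to 348 in TI and 69.5 to 215 in TIM. Of the 4 smooth muscle and stroma markers, 3 were lower in each tumor group, and the liver marker miR-122-5p was lower in both. None of the 2 neuroendocrine, 5 epithelial, 2 erythroid and 2 skeletal muscle markers passed the test, and no marker was at 0 in any library. The part of these markers in the values of the miR-181 family was not tested.

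In the adrenal gland miR-181a-5p led the family, and in the tumors miR-181d-5p did. In AG the order of the mean levels was miR-181a-5p with 971 ± 206 CPM (SD, n = 3), miR-181d-5p with 418 ± 55.7 CPM, miR-181b-5p with 265 ± 43.0 CPM, miR-181c-5p with 57.3 ± 6.31 CPM, miR-181a-2-3p with 55.0 ± 5.94 CPM and miR-181a-1-3p with 19.3 ± 4.92 CPM. The libraries of neighbours in this order did not overlap, except for miR-181c-5p and miR-181a-2-3p. In TI the order began with miR-181d-5p at 2926 ± 1996 CPM (SD, n = 7), above miR-181a-5p at 739 ± 289 CPM in 7 of 7 libraries. miR-181b-5p followed with 554 ± 143 CPM and overlapped miR-181a-5p. In TIM miR-181d-5p had 1169 ± 794 CPM (SD, n = 8), miR-181a-5p 874 ± 505 CPM and miR-181b-5p 633 ± 311 CPM, and their ranges overlapped. miR-181d-5p was the highest member in 0 of 3 AG, 7 of 7 TI and 6 of 8 TIM libraries. Of the remaining TIM libraries, miR-181a-5p was highest in 1 and miR-181b-5p in 1.

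**Figure D1:**
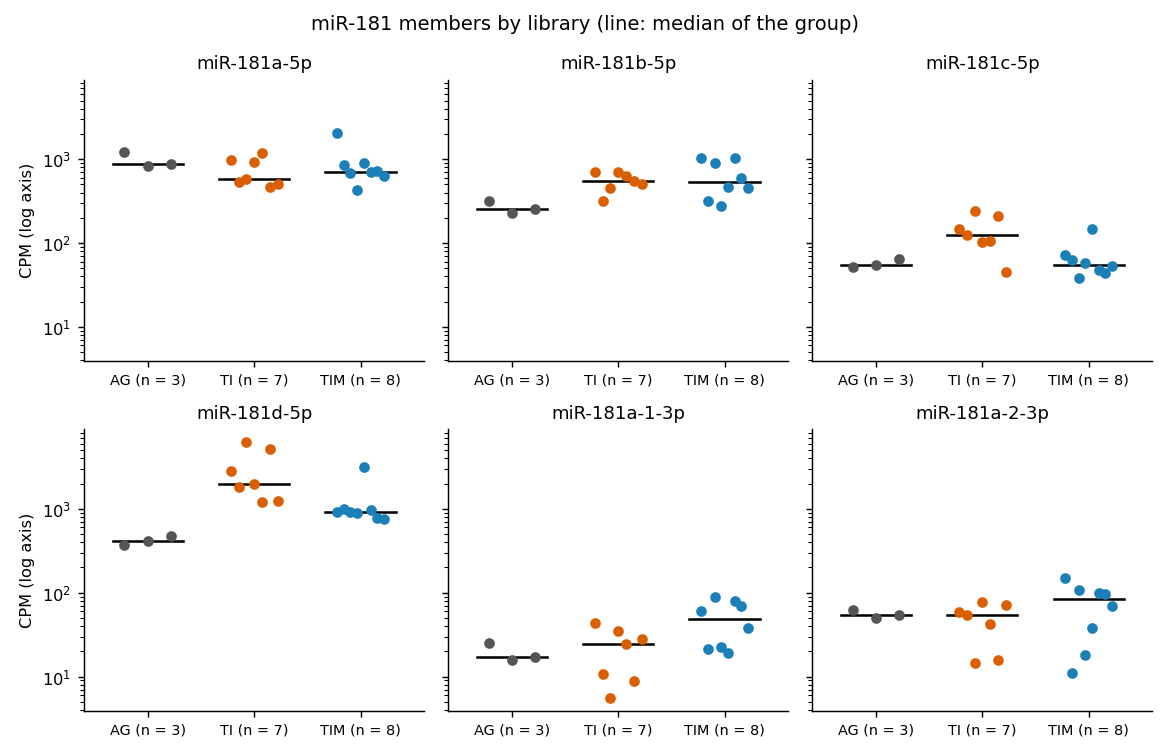
CPM of each of the 6 members (log axis) in 3 AG, 7 TI and 8 TIM libraries, 1 point per library, with a line at the group's median. All TI and TIM points of miR-181d-5p lie above the AG points, while those of miR-181a-5p overlap AG.

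The 4 miRNAs with the seed ACAUUCA summed to 1517 to 1939 CPM in AG, to 2294 to 7508 CPM in TI and to 1646 to 4647 CPM in TIM. The make-up of this sum differed. miR-181a-5p gave 52.7% to 62.2% of it in AG, 7.33% to 38.0% in TI and 19.6% to 50.6% in TIM. miR-181d-5p gave 18.9% to 28.4% in AG, 38.4% to 83.0% in TI and 22.4% to 67.2% in TIM. Without TI library 5 the TI shares ran from 7.33% to 24.7% for miR-181a-5p and from 53.4% to 83.0% for miR-181d-5p. The shares of miR-181a-5p in the tumors were all below those in AG, whereas 1 TIM library had a share of miR-181d-5p within the AG range. miR-181c-5p, the least of the 4, stayed between 1.5% and 4.46% of the sum in all 18 libraries.

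**Figure D2:**
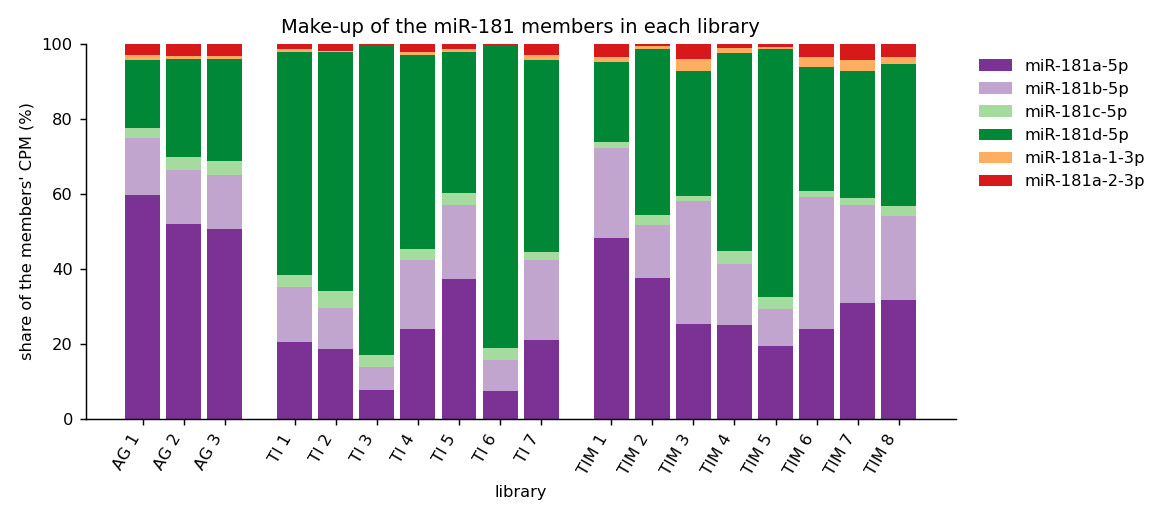
Share of each member in the CPM summed over the 6 members (%), 1 bar per library. miR-181a-5p takes the largest share in the 3 AG libraries and miR-181d-5p in the 7 TI libraries, with 37.6% in TI 5 and 82.8% in TI 3 as their ends.

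On chromosome 8, miR-181d-5p and miR-181c-3p were higher in both tumor groups, and miR-181c-5p was called in TI. miR-181d-5p had 367, 410 and 478 CPM in the AG libraries, from 1208 to 6232 CPM in TI with a median of 1980, and from 754 to 3121 CPM in TIM with a median of 913. Neither tumor group overlapped AG, and TI libraries 3 and 6 (6232 and 5166 CPM) and TIM library 5 (3121 CPM) were the highest. Without TI library 5 the lowest TI value was 1232 CPM. The difference of the means of log2(CPM + 1) from AG was 2.54 in TI (95% interval 1.5 to 3.58, adjusted p = 0.00036 from limma). In TIM it was 1.32 (95% interval 0.30 to 2.34, adjusted p = 0.032 from limma). Here and below the adjusted p is that of limma with Benjamini-Hochberg adjustment over the 726 miRNAs that reached 1 CPM in 3 or more libraries, and a difference is called at 0.05. Leaving out any 1 library kept the call in TI, with differences of 2.31 to 2.71. In TIM the call was lost without AG library 1, 2 or 3, with an adjusted p of 0.11, 0.084 and 0.064, and it was lost with edgeR (adjusted p = 0.051) and without a filter (0.058).

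miR-181c-5p, the neighbour of miR-181d-5p on the same strand, had 52.2, 55.3 and 64.4 CPM in AG, 45.7 to 244 CPM in TI with a median of 124, and 38.0 to 146 CPM in TIM with a median of 55.2. In TI, 6 of 7 libraries were above AG and 1 below it, and in TIM 2 were above AG and 3 below. The difference in TI was 1.12 on the log2(CPM + 1) scale (95% interval 0.19 to 2.05, adjusted p = 0.039 from limma). It was lost without any AG library (adjusted p of 0.12, 0.10 and 0.072 without libraries 1, 2 and 3). It was also lost without TI library 1, 2, 3 or 6 (0.060, 0.053, 0.069 and 0.069), with CPM without the TMM factor (0.10), without a filter (0.070) and with only TI and AG in the model (0.051). In TIM the difference was 0.06 (95% interval -0.85 to 0.98, adjusted p = 0.91).

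The other arm of this hairpin, miR-181c-3p, had values close together in AG, with 38.2, 39.4 and 41.3 CPM. It ran from 88.1 to 400 CPM in TI with a median of 220, and from 59.3 to 245 CPM in TIM with a median of 180. No tumor library overlapped AG. Its differences were 2.24 in TI (95% interval 1.29 to 3.19, adjusted p = 0.00051 from limma) and 2.01 in TIM (95% interval 1.07 to 2.95, adjusted p = 0.0012), and both calls held in every alternative run. The other arm of Mir181d, miR-181d-3p, had at most 0.731 CPM in any library, was at 0 reads in 1 AG and 1 TI library and was not tested.

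Of the members made at the loci on chromosomes 1 and 2, miR-181b-5p was higher in both tumor groups and miR-181a-5p was called in neither. miR-181b-5p had 230, 252 and 313 CPM in AG, 315 to 708 CPM in TI with a median of 542, and 273 to 1033 CPM in TIM with a median of 533. TI did not overlap AG, though its lowest library was close to the highest of AG, and 7 of 8 TIM libraries were above AG. The differences were 1.03 in TI (95% interval 0.19 to 1.87, adjusted p = 0.037 from limma) and 1.10 in TIM (95% interval 0.28 to 1.93, adjusted p = 0.027 from limma). The call in TI was lost without AG library 1, 2 or 3 (adjusted p of 0.061, 0.12 and 0.099) and without TI library 1, 4 or 5 (0.061, 0.061 and 0.050). It was lost with CPM without the TMM factor (0.18) and without a filter (0.069) as well. The call in TIM was lost only when an AG library was left out (0.054, 0.095 and 0.081), among the alternatives run.

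How reads that match several miRNAs were counted is not given in the sources used here, and miR-181b-5p differs from the more abundant miR-181d-5p by C12U and the final U. In TI libraries 3 and 6, which had the most miR-181d-5p, miR-181b-5p was at 455 and 542 CPM, at or below the TI median of 542. TIM libraries 1, 3 and 6, which had the most miR-181b-5p (1031, 892 and 1033 CPM), had 914, 911 and 973 CPM of miR-181d-5p. The part of shared reads in these values was not tested.

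miR-181a-5p, the family member best known from T cells, had 822, 886 and 1206 CPM in AG, 468 to 1196 CPM in TI with a median of 577, and 424 to 2071 CPM in TIM with a median of 707. The tumors overlapped AG, with 4 of 7 TI and 5 of 8 TIM libraries below the lowest AG library. Without TI library 5 the highest TI value was 983 CPM. The differences were -0.46 in TI (95% interval -1.30 to 0.37, adjusted p = 0.34) and -0.28 in TIM (95% interval -1.10 to 0.53, adjusted p = 0.56). Their sign turned when the reads of miR-148a-3p were dropped before scaling (0.062 and 0.31), so no direction is given for miR-181a-5p. The highest value, 2071 CPM, was that of TIM library 1, in which the skeletal muscle markers summed to 22517 CPM against at most 341 CPM in any other library.

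The 3p arms of the miR-181a hairpins, which unlike miR-181a-5p each point to 1 locus, were less abundant than miR-181a-5p in every group. Their levels varied more within each tumor group than within AG. miR-181a-1-3p, from chromosome 1, had 15.8, 17.2 and 24.9 CPM in AG, 5.55 to 43.4 CPM in TI with a median of 24.5, and 19.3 to 88.5 CPM in TIM with a median of 48.7. It overlapped AG in both tumor groups. Its difference was -0.07 in TI (95% interval -1.33 to 1.20, adjusted p = 0.94), which turned to 0.20 with edgeR, and 1.12 in TIM (95% interval -0.12 to 2.37, adjusted p = 0.12). The latter passed with DESeq2 on the recovered reads (1.38, adjusted p = 0.042) and when miR-148a-3p was dropped before scaling (1.71, adjusted p = 0.035).

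miR-181a-2-3p, from chromosome 2, had 49.7, 54.0 and 61.4 CPM in AG, 14.5 to 78.1 CPM in TI with a median of 53.7, and 11 to 152 CPM in TIM with a median of 83.0. Both tumor groups held libraries above and below AG, and the highest TIM value was 13.8 times the lowest. The differences were -0.42 in TI (95% interval -1.90 to 1.06, adjusted p = 0.65) and 0.01 in TIM (95% interval -1.43 to 1.46, adjusted p = 0.99), with wide intervals on both sides of 0. The lowest levels of both 3p arms in TI were those of libraries 3 and 6, the ones with the most miR-181d-5p.

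The 3p arms of the miR-181b hairpins were near the floor. miR-181b-1-3p had 0.231 to 0.740 CPM in AG, 0.352 to 7.39 in TI and 0.639 to 8.51 in TIM, and its difference passed in TIM (1.45, adjusted p = 0.028 from limma) but not in TI (0.83, adjusted p = 0.20). The call in TIM was lost without AG library 1, 2 or 3 (adjusted p of 0.11, 0.075 and 0.056), with a pseudocount of 5 (0.60, adjusted p = 0.059) and without a filter (0.054). With DESeq2 the differences were 2.98 in TIM and 2.18 in TI, and the latter passed (adjusted p = 0.024). miR-181b-2-3p stayed at or below 1.88 CPM in all libraries and was called in neither group, with differences of 0.05 and 0.33. A miRNA with 3 reads had 0.101 to 0.272 CPM, so the lowest of these values rest on few reads, and limits of this kind cover counting error only.

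**Figure D3:**
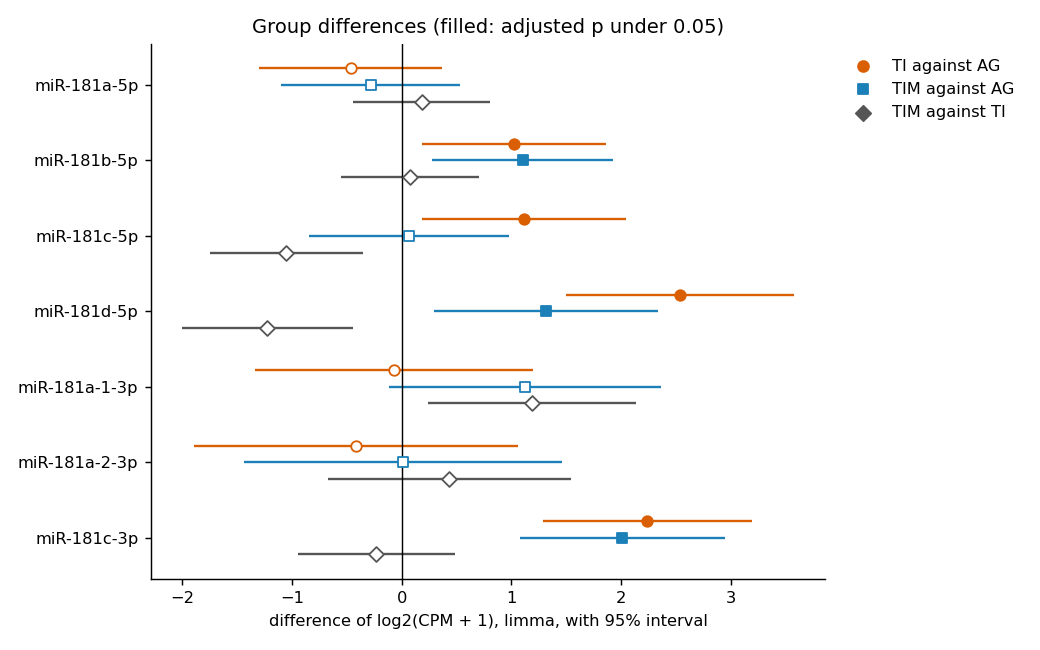
Difference of the mean log2(CPM + 1) between groups (x axis) with its 95% interval from limma for the 6 members and miR-181c-3p, filled where the adjusted p is under 0.05. miR-181d-5p and miR-181c-3p lie farthest to the right in TI against AG, at 2.54 and 2.24, and no symbol of TIM against TI is filled.

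Over the family, 3 of 6 members were called higher and 0 lower in TI, where 55.8% of the 726 tested miRNAs were called and 26.4% were called higher. In TIM 2 of 6 were called higher and 0 lower, where 51.4% were called and 25.5% called higher. Libraries did not overlap with AG for 2 members in TI, beside 46.4% of all tested miRNAs, and for 1 member in TIM, beside 43.1%. The median difference of the members was 0.48 in TI and 0.58 in TIM, beside -0.01 and 0.18 over all tested miRNAs. Both comparisons used the same 3 AG libraries. Without any 1 AG library the count fell to 1 in TI, which was miR-181d-5p, and to 0 in TIM. The calls over all tested miRNAs fell as well. Without AG library 1, 2 and 3 they went from 405 to 294, 332 and 331 in TI. In TIM they went from 373 to 227, 278 and 266. Without TI library 5 the count of members in TI was 2, since miR-181b-5p was lost, where 431 of 721 miRNAs were called.

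Between the tumor groups no member was called with limma, where 5.23% of the tested miRNAs were called. An unadjusted limma p under 0.05 was found for 3 of the 6 members, beside 165 of the 726 tested miRNAs. miR-181d-5p was 1.22 lower in TIM than in TI on the log2(CPM + 1) scale (95% interval 0.44 to 2.0 lower, adjusted p = 0.053 from limma). For miR-181c-5p the difference was 1.05 in the same direction (95% interval 0.36 to 1.75 lower, adjusted p = 0.059). For miR-181a-1-3p, TIM was 1.19 above TI (95% interval 0.24 to 2.14, adjusted p = 0.11). With DESeq2 on the recovered reads miR-181c-5p and miR-181d-5p were called (adjusted p of 0.0070 and 0.0076), where 123 of 726 miRNAs were called. edgeR called 0 members, where it called 3 of 726 miRNAs. With CPM without the TMM factor the differences were -0.67 for miR-181d-5p (adjusted p = 0.20 from limma) and -0.50 for miR-181c-5p (0.27). miR-181a-1-3p was called there with 1.72 (0.026), where 155 of 730 miRNAs were called. Single libraries decided these calls. miR-181d-5p was called without TI library 5 (adjusted p = 0.029), TI library 7 (0.027) or TIM library 5 (0.014), and miR-181c-5p without TI library 7 (0.013) or TIM library 5 (0.021). The remaining members, miR-181a-5p (0.18), miR-181b-5p (0.08) and miR-181a-2-3p (0.44), had intervals on both sides of 0.

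The ratio of the CPM of 2 members within a library does not depend on its scaling. The tested log2 ratios were of CPM + 1, which for low members depend on the added 1 (miR-181a-1-3p over miR-181a-2-3p in TIM against AG was 1.11, and 0.95 to 1.15 with other pseudocounts), and 5 of them were compared in 3 ways each, with an exact permutation test over libraries and adjustment over the 15 tests. AG had 3.52 to 3.86 times as much miR-181a-5p as miR-181b-5p, TI 0.863 to 1.88 times and TIM 0.678 to 2.68 times. All 15 tumors were below the 3 AG libraries, and the highest TI ratio was 1.67 without TI library 5. The log2 ratio was lower by 1.49 in TI and by 1.39 in TIM (exact permutation test, two-sided, adjusted p = 0.042 for each). These p-values rest on the smallest that the designs allow, 0.0167 with 120 arrangements and 0.0121 with 165. With an AG library left out neither passed (exact permutation adjusted p of 0.10 to 0.12). The arrangements are then too few for either to pass after adjustment, whatever the difference. Of the libraries left out in turn, 1 of 10 in TI and 3 of 11 in TIM kept the adjusted p under the threshold. These counts hold for the next ratio too. Without TI library 5 the difference of TI from AG was -1.58 for miR-181a-5p over miR-181b-5p (exact permutation adjusted p = 0.052). For the next ratio, miR-181c-5p over miR-181d-5p, it was -1.55 (exact permutation adjusted p = 0.052). Both differences were farther from 0 than with all TI libraries. The threshold was also missed without TI library 2, 3, 4, 6 or 7, and fewer arrangements raise the smallest possible p in all these runs.

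The same held for the neighbours on chromosome 8. miR-181d-5p had 7.03, 7.41 and 7.42 times the CPM of miR-181c-5p in AG, 11.4 to 26.9 times in TI with a median of 19.3, and 12.6 to 24 times in TIM with a median of 16.8. Without TI library 5 the lowest TI ratio was 14.6. No tumor overlapped AG, and the log2 ratio of miR-181c-5p over miR-181d-5p differed by -1.42 in TI and -1.25 in TIM (exact permutation test, adjusted p = 0.042 for each). Between TIM and TI it differed by 0.17 (exact permutation adjusted p = 0.50).

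miR-181a-5p over miR-181c-5p was the 1 ratio of the 5 whose difference between the tumor groups passed the test. It was 13.8 to 23.1 in AG, 2.25 to 11.2 in TI and 6.24 to 28.6 in TIM. Its log2 differed by -1.58 between TI and AG (exact permutation adjusted p = 0.042) and by 1.23 between TIM and TI (exact permutation adjusted p = 0.042), where the ranges overlapped. The first was 0.062 by the absolute difference and stayed under the threshold for 1 of the 10 libraries left out in turn. It was lost when any AG library was left out (exact permutation adjusted p of 0.10 to 0.12) and without TI library 2, 3, 4, 5, 6 or 7 (0.052 to 0.061). Fewer arrangements raise the smallest possible p in these runs, and without an AG library it could not pass after adjustment, whatever the difference. The second, which ran from 0.042 to 0.074 with 1 library left out, stayed under the threshold for 3 of the 15 libraries left out in turn, not for TI library 5 (1.4, exact permutation adjusted p = 0.052). TIM and AG differed by -0.35 (exact permutation adjusted p = 0.56).

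For the 3p arms, miR-181a-1-3p was 0.317 to 0.406 times miR-181a-2-3p in AG, 0.202 to 0.731 times in TI and 0.394 to 1.94 times in TIM, where it exceeded 1 in libraries 2 and 4. The log2 ratio in TIM was 1.11 above AG (exact permutation adjusted p = 0.052) and 0.76 above TI (exact permutation adjusted p = 0.074), and neither passed. Without TIM library 1 both passed (exact permutation adjusted p = 0.036 for each), and without TI library 1 the latter passed (0.047). miR-181a-5p was 12.4 to 14.0 times the sum of both its 3p arms in AG, but 5.06 to 28.7 times in TI and 3.54 to 26.3 times in TIM, so this ratio scattered in both directions around AG. It differed by -0.15 in TI and -0.72 in TIM (exact permutation adjusted p of 0.73 and 0.40).

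The arms of Mir181c also shifted against each other. This ratio was chosen after its values were seen and has no test. miR-181c-5p was 1.26, 1.4 and 1.69 times miR-181c-3p in AG, so the 5p arm was the more abundant in all 3. It was 0.208 to 2.63 times in TI with a median of 0.469, and 0.181 to 1.05 times in TIM with a median of 0.307. The 3p arm was the more abundant in 4 of 7 TI and 7 of 8 TIM libraries. The exceptions in TI were libraries 3, 5 and 6, of which 3 and 6 had the most miR-181c-5p. In all of these exceptions miR-181c-3p was also below the TI median of 220 CPM, at 92.5, 88.1 and 183 CPM.

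**Figure D4:**
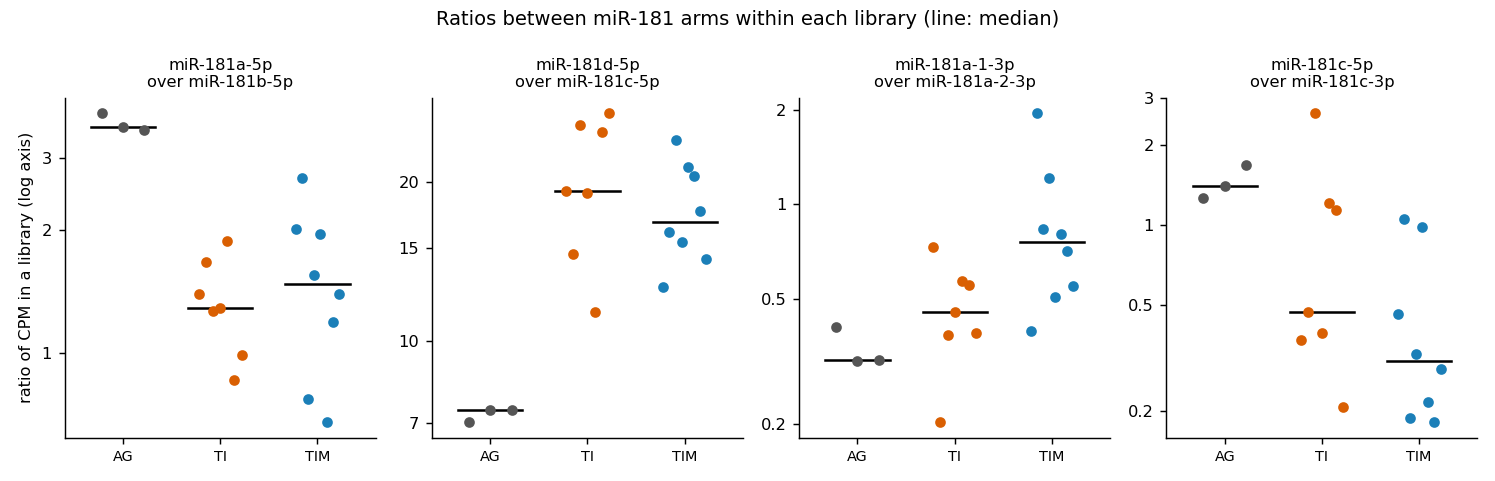
Ratio of the CPM of 2 miR-181 arms within each library (log axes), 1 point per library, with a line at the group's median. The AG points lie close together, above all tumors for miR-181a-5p over miR-181b-5p and below all tumors for miR-181d-5p over miR-181c-5p.

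Among tumors of a group, 3 pairs of members were compared by the correlation of log2(CPM + 1), with an exact permutation of the pairings and adjustment over the 6 relations. The levels share each library's scaling. miR-181c-5p and miR-181d-5p varied together in TI (n = 7, Pearson r = 0.87, exact permutation adjusted p = 0.024, Spearman rho = 0.82, adjusted p = 0.068). Without the 2 libraries farthest from the median r was 0.93, and without TI library 1, 3 or 6 the adjusted p was above the threshold, at most 0.072. In TIM r was 0.88 (n = 8, exact permutation adjusted p = 0.087, rho = 0.57, adjusted p = 0.23) and fell to 0.43 without the 2 farthest libraries. It rested on TIM library 5, without which r was 0.24.

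miR-181a-1-3p and miR-181a-2-3p, which come from different chromosomes, also varied together in TIM (n = 8, r = 0.86, exact permutation adjusted p = 0.032, rho = 0.79, adjusted p = 0.068), and r was 0.87 without the 2 farthest libraries. With 1 library left out in turn the adjusted p ran from 0.030 to 0.081 and stayed under the threshold for 2 of the 8 libraries. In TI r was 0.85 (n = 7, exact permutation adjusted p = 0.056, rho = 0.86, adjusted p = 0.068) and 0.41 without the 2 farthest, libraries 3 and 6. For miR-181a-5p and miR-181b-5p r was 0.70 in TI (n = 7, exact permutation adjusted p = 0.081, rho = 0.54) and 0.53 in TIM (n = 8, exact permutation adjusted p = 0.18, rho = 0.38), where it turned to -0.49 without the 2 farthest libraries.

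**Figure D5:**
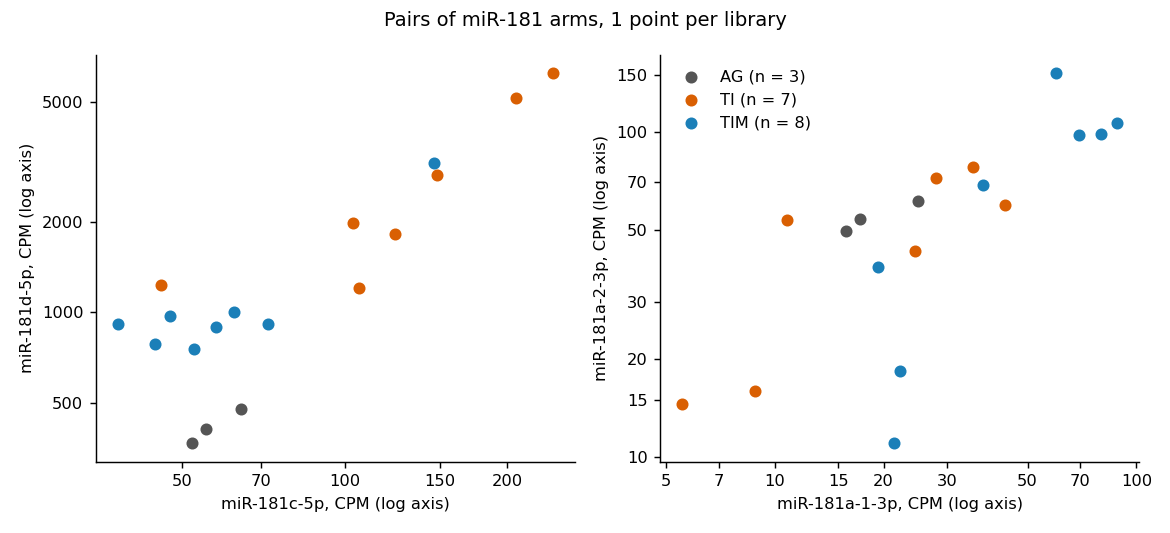
CPM of miR-181d-5p against miR-181c-5p (left) and of miR-181a-2-3p against miR-181a-1-3p (right), log axes, 1 point per library. On the left the 3 AG points lie below the tumors at the same level of miR-181c-5p, and on the right TI libraries 3 and 6 hold the lowest miR-181a-1-3p, at 5.55 and 8.80 CPM.

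Across all 18 libraries, the 5 miRNAs whose log2(CPM + 1) was most like that of a member were taken from 394 with a mean of at least 10 CPM, as a description without a test. For miR-181a-5p they were miR-195a-3p (r = 0.66), miR-24-3p (0.63), miR-24-1-5p (0.62), miR-671-3p (0.62) and let-7a-5p (0.61), each with a lower mean in both tumor groups than in AG. For miR-181c-5p they were miR-153-3p (r = 0.85), miR-540-5p (0.84), miR-361-5p (0.79), miR-376b-5p (0.73) and miR-376a-3p (0.67). These had their highest mean in TI, such as miR-153-3p with 14.6 CPM in AG, 51.8 in TI and 28.2 in TIM. For miR-181d-5p, added after its values were seen, they were miR-361-5p (r = 0.86), miR-376a-3p (0.86), miR-124-3p (0.78), miR-153-3p (0.78) and miR-149-5p (0.77). miR-361-5p, miR-376a-3p and miR-153-3p were thus listed for both members of the chromosome 8 pair. These r mix differences between groups with differences within them. After the group means were removed, r was 0.58 to 0.67 for the 5 of miR-181a-5p. For miR-181c-5p it ran from 0.57 (miR-376a-3p) to 0.78 (miR-153-3p). For miR-181d-5p it was 0.77 for miR-361-5p, 0.61 for miR-376a-3p, 0.82 for miR-124-3p, 0.57 for miR-153-3p and 0.46 for miR-149-5p.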

How the data were processed

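Small RNA of about 30 mg of frozen tissue was sequenced by the authors. Per the labels' processing notes the authors used cutadapt 2.8, Bowtie2 2.3.5.1 on mm10, featureCounts 2.0.0 and edgeR 3.40, and deposited a signal per miRNA, the CPM on a TMM-scaled library total. The authors' 9 deposited columns of log2 fold changes, p-values and FDR from edgeR were not used. All values (100%, tolerance 0.01 reads) were whole multiples of 1 read, which gave the reads for edgeR 4.0.16 and DESeq2 1.42.0. No libraries were identical. The main test was limma 3.58.1 (eBayes, trend) in R 4.3.3, run for log2(CPM + 1) of 726 miRNAs that reached 1 CPM in 3 or more libraries, with all 18 libraries and Benjamini-Hochberg adjustment, tested on simulated data. This scale understates changes of low miRNAs. Exact two-sided permutation tests (doubled smaller tail) were run in Python 3.11.15. The study describes the TI tumors mouse by mouse, while TIM mice often bore several tumors. Whether TIM libraries share a mouse is not given in the sources used here, so p-values measure the spread between tumors, some of which could come from the same TIM mouse. The members and lists were chosen with earlier results of these data known. Named were all members, the other arms of their hairpins, the cell type markers, miR-148a-3p, and the 5 miRNAs most like miR-181a-5p and miR-181c-5p. Alternatives were pseudocounts of 0.1 and 5, no filter or one of 10 CPM, 3 other scalings, only the groups compared, edgeR, DESeq2 and each library left out.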

Additional observations from a re-analysis of the deposited data

Results flagged for a closer look

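The level of miR-181d-5p in TIM library 5 lay far above the other TIM libraries. The gap to the next library, 3121 against 1003 CPM, took 0.799 of the group's range on the log2(CPM + 1) scale, above Dixon's 95% critical value of 0.526 for 8 libraries. It was the 1 value past its critical value among 22 groups of values looked at (6 members and 5 ratios in TI and TIM), where chance gives about 1.1.

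The log2 ratio of miR-181a-5p over miR-181c-5p differed between the tumor groups, 1.23 higher in TIM than in TI (exact permutation test, adjusted p = 0.042 over 15 tests). The mean log2 ratio was 3.7 ± 0.70 (SD, n = 8) in TIM and 2.46 ± 0.99 (SD, n = 7) in TI, and the ranges overlapped.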

How the results depend on the processing

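No paired analysis was possible because the table's columns cannot be matched to the numbered mice. Counts of members called changed with the processing. The number of all miRNAs called in the same run is in brackets. In TI against AG 3 fell to 1 without a filter (447 of 1631) and with CPM without the TMM factor (384 of 730). In TIM against AG 2 fell to 1 without a filter (406 of 1631) and with edgeR (352 of 726). Between TIM and TI 0 became 1 with CPM without the TMM factor (155 of 730) and 2 with DESeq2 (123 of 726). With 1 library left out the counts ran from 1 to 3, from 0 to 2 and from 0 to 2. The calls over all tested miRNAs then ran from 294 to 431, from 227 to 383 and from 24 to 68. The calls of miR-181d-5p and miR-181c-3p in TI held in all alternatives run.

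The median difference of all tested miRNAs moved with the scaling, the tool and the pseudocount. A pseudocount of 0.1 alone shifted it by -0.092 in TI against AG. The set of tested miRNAs also changed, to 730 without the TMM factor and 775 with miR-148a-3p dropped, against 726 in the main run. Without the TMM factor the shift was -0.13 and 0.23 in TI and TIM against AG and 0.42 in TIM against TI, with miR-148a-3p dropped it was 0.32, 0.35 and 0.07, with edgeR 0.12, 0.21 and 0.03, and with DESeq2 0.14, 0.15 and -0.01. Differences that changed sign were never past the threshold. With miR-148a-3p dropped, miR-181a-5p had 0.062 in TI and 0.31 in TIM, miR-181a-1-3p 0.43 in TI and miR-181a-2-3p 0.092 in TI. Without the TMM factor miR-181a-5p had 0.063 in TIM and miR-181c-3p 0.32 between TIM and TI. miR-181a-1-3p in TI had 0.20 with edgeR and 0.18 with DESeq2, and miR-181a-2-3p in TIM had -0.028 with median ratio scaling. The cause was not tested.

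With 1 library left out, these differences crossed 0: miR-181a-5p between TIM and TI (-0.017 to 0.31), miR-181b-5p between TIM and TI (-0.050 to 0.23), miR-181c-5p in TIM (-0.12 to 0.16), miR-181a-1-3p in TI (-0.27 to 0.19) and miR-181a-2-3p in TIM (-0.19 to 0.33). The log2 ratio of miR-181a-5p over miR-181b-5p ran from -1.58 to -1.39 in TI, from -1.52 to -1.24 in TIM and from -0.029 to 0.25 between TIM and TI. That of miR-181c-5p over miR-181d-5p ran from -1.55 to -1.35 and from -1.32 to -1.19 in TI and TIM. That of miR-181a-1-3p over miR-181a-2-3p ran from 0.93 to 1.25 in TIM against AG and from 0.57 to 0.89 in TIM against TI. That of miR-181a-5p over miR-181c-5p ran from -1.75 to -1.35 in TI against AG and from 1.02 to 1.4 in TIM against TI, and by the absolute difference -1.58 in TI no longer passed. That of miR-181a-5p over its 3p arms ran from -0.36 to 0.046 in TI. Correlations ran from 0.82 to 0.96 for miR-181c-5p and miR-181d-5p in TI and from 0.83 to 0.91 for the 3p arms in TIM. Without the TMM factor and with miR-148a-3p dropped, the correlation passed for miR-181c-5p and miR-181d-5p in TIM (0.92 and 0.88) and for the 3p arms in TI (0.84 and 0.82), and without the TMM factor for miR-181a-5p and miR-181b-5p in TI (0.69). With fewer libraries a test has less power and fewer arrangements. Low read counts limit only miR-181b-1-3p, miR-181b-2-3p and miR-181d-3p.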
